A study of Mus musculus with 6 samples.

Results

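The POU genes examined here are Oct6 itself (official symbol Pou3f1) and 9 relatives whose products bind related DNA sites: Pou3f2, Pou3f3, Pou5f1, Pou2f1, Pou2f2, Pou2f3, Pou4f1, Pou4f2 and Pou6f1. They were taken by name, through the Ensembl identifiers of the counts table and GENCODE M39, and make up 10 of the 55416 genes listed. RNA-seq was performed on epiblast-like cells (EpiLCs), the formative cells that mouse embryonic stem cells (mESCs) reach within 48 h of differentiation, with 3 libraries of WT EpiLCs and 3 libraries of Oct6 KO EpiLCs. WT cells were the parental mESC line, which carries a GFP reporter in the neural gene Sox1. KO cells were 1 clone of that line in which CRISPR/Cas9 had left a homozygous insertion of 1 nucleotide early in the Oct6 coding sequence. The paper reports that this insertion shifts the reading frame and gives a premature stop codon. All 6 cultures were kept for 48 h on fibronectin with 1% KSR, a serum replacement, bFGF at 12 ng/ml and Activin A at 20 ng/ml, according to the sample labels. Values of single libraries are given in the order of replicates 1 to 3. The question asked of these genes was whether any of them is counted at another level when Oct6 is mutated. Because every KO library comes from the same clone, the effect of the mutation and features of that clone cannot be told apart, and p-values measure only the spread between these libraries.

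POU factors share a bipartite DNA-binding region, made of a POU-specific domain and a POU homeodomain joined by a linker, and many of them recognise the octamer element or variants of it. They bind alone, as dimers or next to a partner such as a SOX protein, and the classes of the family differ in the partners and in the tissues they serve. Oct4, encoded by Pou5f1, is the POU factor of pluripotent cells, whereas the class III factors such as Oct6, Brn2 and Brn1 are known mostly from the epiblast, neural progenitors and glia.

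Libraries held between 10995505 and 14680930 counts. Markers of EpiLCs (Fgf5, Otx2, Dnmt3a, Dnmt3b and Sox2) were counted in every library and summed to between 2190 and 2420 CPM in WT EpiLCs and between 2270 and 2420 CPM in KO EpiLCs, where CPM are counts scaled to a library of 1e6 counts after TMM normalization. Dnmt3b made up most of this sum, and 3 of the 5 markers passed as higher in KO EpiLCs, Otx2, Sox2 and Fgf5, the last with a log2 fold change of 0.65 (adjusted p = 3.8e-04). The filter on low counts left 15746 genes, of which 3833 (24.3%) had an adjusted p below 0.1, 1864 (11.8%) higher and 1969 (12.5%) lower in KO EpiLCs, with a median log2 fold change of 0.0014 over all genes tested. On the chromosomes that hold POU members, the medians ran from −0.041 to 0.034. Chromosomes 16 and 6, which hold no member, had medians of 0.55 (471 genes tested) and −0.40 (773 genes tested). Their genes are included in the shares of all genes given here and below, and the cause of these shifts was not tested. Adjusted p-values are those of the quasi-likelihood test of edgeR, with the Benjamini-Hochberg method applied over all genes tested, unless another tool is named.

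For most POU members the test could not distinguish the level in the mutant from that in WT. Of the 10 members, 6 had enough counts to be tested, and 1 of the 6 passed, Pou4f1, which was higher in KO EpiLCs by 0.62 on the log2 scale. In this edgeR fit none passed as lower, neither at the adjusted threshold nor at an unadjusted p below 0.05, where only Pou4f1 was found. At that unadjusted p, edgeR had Pou3f3 and Pou5f1 lower without the filter, and Pou5f1 lower with library totals in place of TMM. Neither passed after adjustment in these fits. DESeq2 gave no adjusted p for Pou3f2, Pou3f3 and Pou4f2, and passed 0 of the other members after adjustment. At an unadjusted p below 0.05, it had Pou4f1 higher and Pou5f1 lower. With the replicate number as a block, a model in which 30.3% of all genes tested passed, edgeR passed 2 members, Pou4f1 higher and Pou5f1 lower. DESeq2 with this block passed Pou5f1 alone, as lower. A share of 1 in 6 is no larger than the 24.3% found over all genes. The CPM of the 2 groups did not overlap for 4 of the 6 members tested, Pou4f1 and Pou2f3 with every KO library higher and Pou5f1 and Pou6f1 with every KO library lower, which compares with 33.7% of all genes tested.

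**Figure D1:**
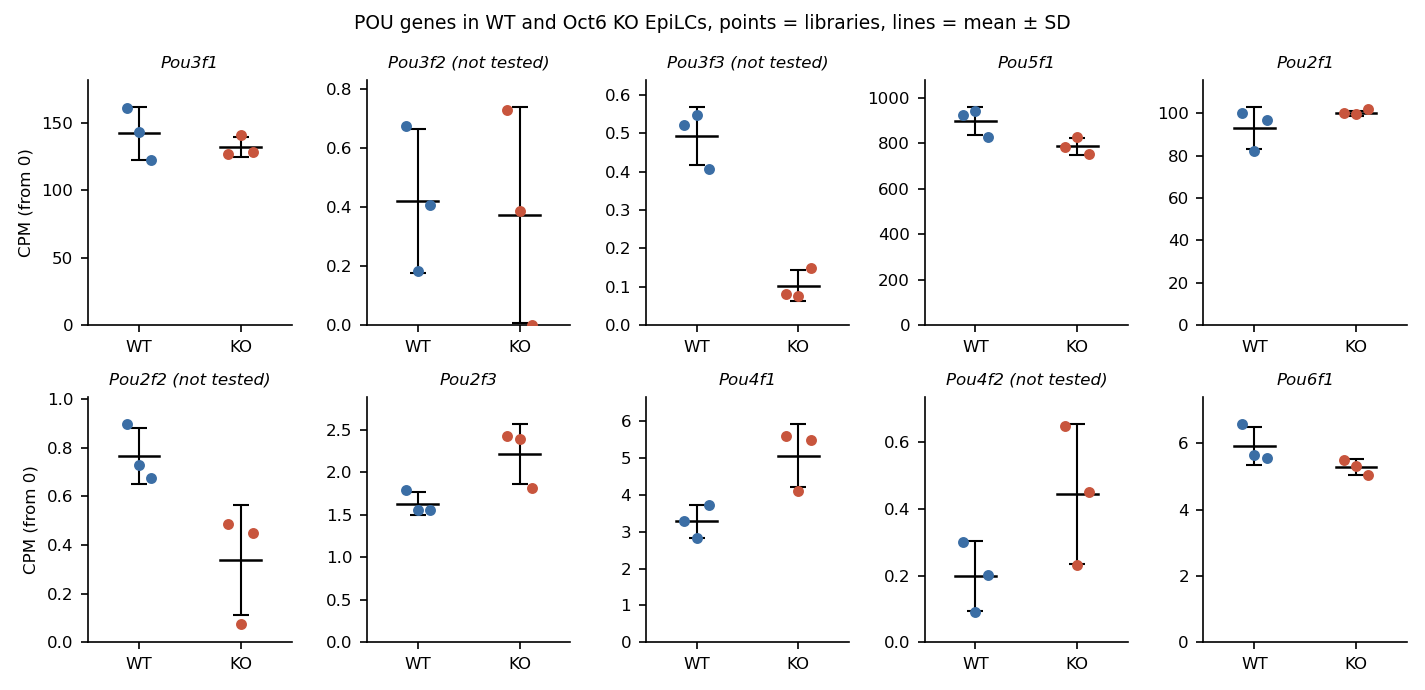
CPM of the 10 POU members in each library, with WT EpiLCs in blue and Oct6 KO EpiLCs in red; every vertical axis starts at 0 and has its own scale, and black lines give the mean ± SD of 3 libraries. Pou3f1 overlaps between the groups at 122 to 161 CPM, Pou5f1 has 751 CPM in its lowest library, and the panels of the 4 members that were not tested stay below 1 CPM.

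Oct6 transcripts did not differ between the groups beyond the spread of the WT libraries. Pou3f1 (ENSMUSG00000090125.4) is a gene of 1 exon at chr4:124550600-124554448 on the plus strand of GRCm39. It had 2156, 1563 and 1805 counts in the WT libraries and 1567, 1825 and 1708 counts in the KO libraries, or 161, 143 and 122 CPM against 127, 141 and 128 CPM. The 3 KO libraries lay within the range of the WT libraries. On the log2 scale the change was −0.10 (SE 0.11, 95% confidence interval −0.33 to 0.12, adjusted p = 0.574), which as a ratio bounds the KO level between 0.797 and 1.09 times WT. Since the insertion adds 1 nucleotide, a count over the whole gene takes in mutant and intact transcripts alike and cannot check the KO label. The paper reports from Western blot and immunofluorescence that KO EpiLCs lacked OCT6 protein.

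The start of the coding sequence is shown with the start codon in capitals. By the paper's account, the insertion alters the protein from a codon within this stretch. The stretch covers chr4:124551500-124551589 on the plus strand of GRCm39. It is the reference sequence, not that of the clone, and the site of the insertion is not marked.
Pou3f1 coding start: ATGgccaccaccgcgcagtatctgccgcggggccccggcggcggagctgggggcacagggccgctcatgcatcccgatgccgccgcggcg
The coding sequence has 1347 bp, runs to position 124552846 and lies within the single exon. The PCR primers with which the study examined the locus lie on both sides of the start codon, and matched the reference exactly at chr4:124551207-124551226 on the plus strand and at chr4:124551702-124551720 on the minus strand, 514 bp apart from end to end.
Forward primer: gggtcatgaatgaagcccca
Reverse primer: gtgggtagccattgagggt

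Class III genes were compared for shared sequence, since reads that fit several POU genes could move counts from one to another. The stretch of 90 bases below lies in the part of the coding sequence that encodes the POU-specific domain of Oct6 (bases 835 to 924 of the Pou3f1 coding sequence, chr4:124552334-124552423 on the plus strand of GRCm39), and is given with the corresponding stretch of 3 relatives. Capitals mark bases that differ from Pou3f1.
Pou3f1: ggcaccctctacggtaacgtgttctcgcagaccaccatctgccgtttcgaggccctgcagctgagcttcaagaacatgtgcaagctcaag
Pou3f2: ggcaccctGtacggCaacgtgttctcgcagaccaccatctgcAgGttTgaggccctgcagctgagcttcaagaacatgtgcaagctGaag
Pou3f3: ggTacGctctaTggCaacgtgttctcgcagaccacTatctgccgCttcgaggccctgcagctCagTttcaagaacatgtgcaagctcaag
Pou5f1: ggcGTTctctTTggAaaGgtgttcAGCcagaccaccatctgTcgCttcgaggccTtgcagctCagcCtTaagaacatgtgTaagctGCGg
Over these 90 bases Pou3f2 matched Pou3f1 at 93.3%, Pou3f3 at 91.1% and Pou5f1 at 77.8% of positions. Over the whole transcripts, the longest run without a mismatch shared with Pou3f1 was 38 bases in Pou3f2, 29 in Pou3f3 and 18 in Pou5f1, all shorter than the reads of 100 bases. Among other annotated genes, 12.2% of the windows of 100 bases in Pou3f1 were also found in Gm2164, a long noncoding RNA on the opposite strand, which itself had between 9 and 25 counts in a library. Whether the counting used the strand is not given in the sources used here.

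The closest relatives of Oct6 were barely counted. Pou3f2, which encodes the neural factor Brn2, had 9, 2 and 6 counts in the WT libraries and 9, 5 and 0 counts in the KO libraries, with overlapping groups. Pou3f3, which encodes Brn1, had 7, 6 and 6 counts in WT EpiLCs and 1, 1 and 2 counts in KO EpiLCs, so that every KO library was lower. Neither passed the filter on low counts. The KO over WT ratio of their summed counts, with an exact binomial 95% interval that covers counting error only, was 0.836 (0.381 to 1.80) for Pou3f2 and 0.214 (0.0529 to 0.643) for Pou3f3. In a fit without the filter, the log2 fold change of Pou3f3 was −2.15 (SE 0.98, 95% confidence interval −4.08 to −0.22) with an adjusted p of 0.187, and that of Pou3f2 was −0.22 with an adjusted p of 0.903. Per length, Pou3f2, Pou3f3 and the remaining class III gene Pou3f4 together came to 0.395% ± 0.115 of the Pou3f1 level in WT EpiLCs (SD, n = 3) and to 0.234% ± 0.185 in KO EpiLCs (SD, n = 3). In no library did this share exceed 0.51%.

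Oct4 remained the most abundant POU transcript in both groups. Pou5f1 (ENSMUSG00000024406.17, chr17:35816789-35822274 on the plus strand of GRCm39, 5 exons), whose product maintains pluripotency together with SOX2, had 12387, 10300 and 12258 counts in the WT libraries and 9691, 10693 and 9989 counts in the KO libraries. In CPM these were 924, 940 and 829 against 785, 825 and 751. Every KO library was below every WT library, although KO replicate 2 and WT replicate 3 stood close together. The log2 fold change was −0.19 (SE 0.094, 95% confidence interval −0.39 to 0.0076), which corresponds to 0.877 times the WT level, and its adjusted p of 0.187 did not pass. When the replicate number was a block, the adjusted p was 0.0665 in edgeR and 0.0824 in DESeq2, and without WT replicate 3 it was 0.09996 with a log2 fold change of −0.25, each of which passes. Gm19553, a noncoding gene on the opposite strand that shares sequence windows with Pou5f1, had no more than 47 counts in a library.

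Among class II genes, the broadly expressed factor Oct1 was the only one with many counts. Pou2f1 (ENSMUSG00000026565.19, chr1:165692723-165830247 on the minus strand of GRCm39), which encodes Oct1, had 100, 82.0 and 96.9 CPM in the WT libraries and 99.9, 99.5 and 102 CPM in the KO libraries. WT replicates 2 and 3 were below every KO library and WT replicate 1 lay among the KO values, so that the groups overlapped. Its log2 fold change was 0.11 (SE 0.10, 95% confidence interval −0.11 to 0.32, adjusted p = 0.531). Of the windows of 100 bases in Pou2f1, 15.4% were also found in Cd247, a gene on the opposite strand with no more than 7 counts in a library.

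Pou2f3 (ENSMUSG00000032015.17, chr9:43035228-43121666, minus strand), which encodes the epidermal and tuft cell factor Skn-1a, had 24, 17 and 23 counts in WT EpiLCs and 30, 31 and 24 counts in KO EpiLCs. As CPM, 1.79, 1.55 and 1.56 stood against 2.43, 2.39 and 1.81, every KO library being higher, KO replicate 3 by very little. The interval of the log2 fold change of 0.43 ran from −0.26 to 1.12 (SE 0.33, adjusted p = 0.421). Pou2f2, which encodes the B cell factor Oct2, was below the filter with 12, 8 and 10 counts in WT EpiLCs and 6, 1 and 6 counts in KO EpiLCs. All KO libraries were lower for Pou2f2, with a ratio of summed counts of 0.44 (0.211 to 0.869), and the fit without the filter gave a log2 fold change of −1.17 with an adjusted p of 0.354.

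Class IV genes, which encode the Brn3 factors of sensory neurons, were low in EpiLCs, and both of those with enough counts for the test, Pou4f1 and Pou4f3, were higher in the mutant. Pou4f1 (ENSMUSG00000048349.10, chr14:104699112-104705504 on the minus strand of GRCm39, 3 exons), which encodes Brn3a, had 44, 31 and 55 counts in the WT libraries and 69, 53 and 73 counts in the KO libraries. Its levels of 3.28, 2.83 and 3.72 CPM in WT EpiLCs were all below the 5.59, 4.09 and 5.49 CPM of KO EpiLCs, the nearest libraries being WT replicate 3 and KO replicate 2. The log2 fold change was 0.62 (SE 0.25, 95% confidence interval 0.099 to 1.13, adjusted p = 0.0932), a level 1.53 times that of WT.

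This call for Pou4f1 stood near the threshold. Its adjusted p was 0.0499 with the replicate number as a block in edgeR, 0.113 with library totals in place of TMM, 0.147 without the filter, 0.185 with DESeq2 and 0.298 with DESeq2 and the block, while the log2 fold change stayed at 0.59 to 0.62 in these fits. When each library was left out in turn, the call was kept only without KO replicate 2, and the other 5 fits gave adjusted p-values from 0.1002 to 0.244 and log2 fold changes from 0.52 to 0.72. Pou4f2, which encodes Brn3b, was below the filter with 4, 1 and 3 counts in WT EpiLCs and 8, 3 and 6 counts in KO EpiLCs. These groups overlapped, and the ratio of summed counts was 2.16 (0.882 to 5.77).

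The remaining Brn3 gene, Pou4f3, is outside the 10 members. It encodes Brn3c, known from hair cells of the inner ear. Its counts were 41, 37 and 32 in the WT libraries and 77, 75 and 81 in the KO libraries, or 3.06, 3.38 and 2.16 CPM against 6.24, 5.79 and 6.09 CPM, so that the groups were well separated. The log2 fold change was 1.08 (SE 0.24, 95% confidence interval 0.57 to 1.60, adjusted p = 0.00363), a level 2.12 times that of WT, and it passed in each of 14 alternative fits, with values from 0.91 to 1.21. Of the others, Pou5f2 had between 1 and 9 counts in a library, Pou3f4 had a single count in 1 WT library, and Pou1f1 had 0 counts in all 6 libraries, which allows up to 0.204 to 0.273 CPM in a library (3 counts, counting error only).

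Neuronal markers were examined beside the Brn3 genes, since these genes serve neurons. Of 9 neural and neuronal markers, 5 were tested and 2 passed, beside 24.3% of all genes tested. These were Neurod1 higher in KO EpiLCs by 0.95 on the log2 scale with an adjusted p of 0.00408, and Sox1 lower with −1.78 and an adjusted p of 0.00733. Sox1 had 4.1, 3.56 and 3.31 CPM in the WT libraries and 0.405, 2.24 and 0.527 CPM in the KO libraries. Its log2 fold change was −1.41 without KO replicate 1 and −2.94 without KO replicate 2. The summed level of the 9 markers was 12.8 to 14.4 CPM in WT EpiLCs and 12.9 to 15.3 CPM in KO EpiLCs, and the proneural gene Neurog1 had 0 counts in every library. This sum hides opposite changes, as mean CPM went from 3.66 to 1.06 for Sox1 and from 3.79 to 7.35 for Neurod1. The part of other cells in the values of Pou4f1 and Pou4f3 was not tested, and in these bulk libraries more cells of a type and more RNA per cell cannot be told apart.

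Pou6f1 (ENSMUSG00000009739.18, chr15:100473193-100498423 on the minus strand of GRCm39), the class VI member, encodes the neural factor Brn5. It had 88, 62 and 82 counts in the WT libraries and 68, 69 and 67 counts in the KO libraries. With 6.57, 5.66 and 5.55 CPM in the WT libraries and 5.51, 5.32 and 5.04 CPM in the KO libraries, every KO library was lower, but KO replicate 1 nearly equalled WT replicate 3. The difference was within its error, with a log2 fold change of −0.16 (SE 0.21, 95% confidence interval −0.60 to 0.27, adjusted p = 0.655).

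**Figure D2:**
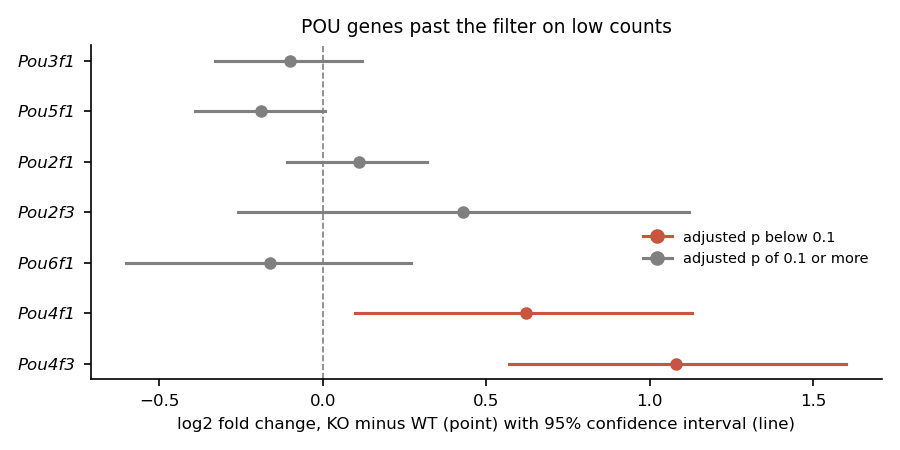
Log2 fold change (KO minus WT, horizontal axis) of the 7 POU genes that passed the filter on low counts, with points for the estimates and lines for 95% confidence intervals; red marks an adjusted p below 0.1. The intervals of Pou4f1 (0.099 to 1.13) and Pou4f3 (0.57 to 1.60) lie above 0, while those of Pou3f1, Pou5f1, Pou2f1, Pou2f3 and Pou6f1 include it.

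Levels of different genes were compared per kilobase of exon, taken as the union of all annotated exons. Pou5f1 came first with 291 ± 19.4 CPM per kb in WT EpiLCs (SD, n = 3) and 255 ± 11.9 in KO EpiLCs, followed by Pou3f1 with 36.9 ± 5.04 and 34.3 ± 1.97, and by Pou2f1 with 5.59 ± 0.585 and 6.02 ± 0.0647. These steps exceeded the spread between libraries. Next in WT EpiLCs came Pou4f3 (1.10 ± 0.241), Pou4f1 (0.691 ± 0.094), Pou6f1 (0.595 ± 0.0562) and Pou2f3 (0.51 ± 0.0429), where Pou6f1 differs from Pou4f1 and Pou2f3 from Pou6f1 by less than the sum of the SDs, and Pou4f3 from Pou4f1 by more. Below them, Pou5f2, Pou2f2, Pou3f2, Pou3f3, Pou4f2 and Pou3f4 were all at or under 0.191 CPM per kb in WT EpiLCs, and down to Pou4f2 their spreads overlapped from one neighbour to the next. In KO EpiLCs the first 5 places were taken by the same genes in the same order, Pou2f3 (0.69 ± 0.109) standing before Pou6f1 (0.531 ± 0.0238).

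Over all POU genes of the table, Pou5f1 made up 86.4% ± 0.944 of the summed level per length in WT EpiLCs (SD, n = 3) and 84.8% ± 0.264 in KO EpiLCs. Pou3f1 made up 10.9% ± 0.873 and 11.4% ± 0.33, and Pou2f1 1.67% ± 0.241 and 2.01% ± 0.111. All other POU genes together accounted for 1.02% ± 0.0427 in WT EpiLCs and 1.72% ± 0.121 in KO EpiLCs. The level of Pou5f1 was 7.94 ± 0.691 times that of Pou3f1 in WT EpiLCs and 7.43 ± 0.238 times in KO EpiLCs, the range over all 6 libraries being 7.16 to 8.46. The choice of length mattered for this order, for the shares and for the ratio, as Pou2f1 has 16653 bp of annotated exon and a canonical transcript of 2591 bp. With the canonical transcript as length, a choice made after seeing the data, Pou2f1 was at 35.9 CPM per kb in WT EpiLCs, next to 36.9 for Pou3f1, and at 38.7 against 34.3 in KO EpiLCs, while Pou5f1 was at 603 and 529. By this length, Pou5f1 was at 16.5 ± 1.44 times the Pou3f1 level in WT EpiLCs and 15.4 ± 0.494 times in KO EpiLCs. Pou3f1 then made up 5.4% and 5.64% of the summed level, and Pou2f1 5.3% and 6.38%.

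**Figure D3:**
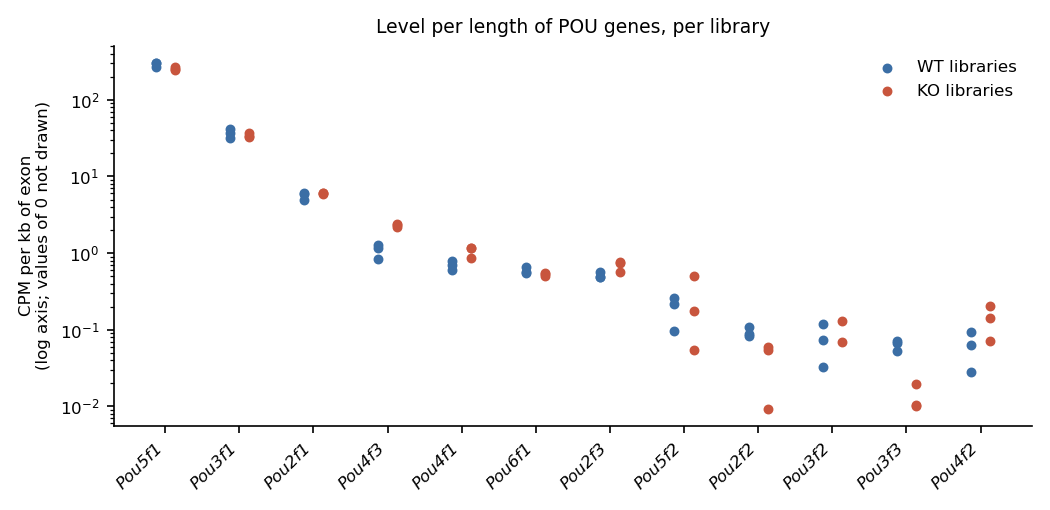
CPM per kilobase of exon (vertical log axis) of 12 POU genes, 1 point per library, WT EpiLCs in blue and KO EpiLCs in red, in the order of the WT means; values of 0 are not drawn, and only genes named in the text are drawn, without Pou3f4 and Pou1f1. Pou5f1, Pou3f1 and Pou2f1 stand apart at the left, and every other gene is below 3 CPM per kb.

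The genes whose log2 CPM followed Pou3f1 most closely over the 6 libraries, among 5912 genes with an average log2 CPM of at least 5, were Qrich1 (Pearson r = 0.986), Gle1 (0.970) and Hmga1b (0.966). For Pou5f1 these were Pgd (0.990), Cpsf4 (0.982) and Rcl1 (0.981). These correlations are descriptions over 6 libraries of 2 groups. They are the highest among 5912 genes, so that values near 1 can arise by chance. All genes also share the depth and the genotype of each library.

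The promoters of the members were searched for the octamer ATGCAAAT on both strands (ATTTGCAT on the other), in RefSeq windows of GRCm38.p6 that reach from 250 bases before to 50 bases after the start of a gene. Of the 8 members with a window, 0 held it, and 1.97% of 27025 genes with a window did. Pou3f1 and Pou2f3 had no window in the table.

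Partners of POU factors moved in both directions. The partner list held 14 genes, of which 12 were tested and 5 passed, 3 higher and 2 lower in KO EpiLCs, with a median log2 fold change of 0.094 over the genes tested, beside 24.3% passing and a median of 0.0014 over all genes. Sox2, the partner of Oct4 on pluripotency enhancers, had 111, 116 and 141 CPM in the WT libraries and 130, 167 and 198 CPM in the KO libraries. Only KO replicate 1 fell within the WT range, and the log2 fold change was 0.42 (SE 0.13, adjusted p = 0.0283). It was 0.35 without WT replicate 1 and 0.27 without KO replicate 3, where the adjusted p-values of 0.111 and 0.206 no longer passed.

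Sox11, a SOX factor of neural progenitors that can act beside class III POU factors, rose from 31.6 ± 3.45 CPM in WT EpiLCs (SD, n = 3) to 58.3 ± 6.42 CPM in KO EpiLCs, or by 0.89 on the log2 scale (SE 0.12, adjusted p = 4.2e-05). Otx2, a homeodomain factor that works with Oct4 in the formative state, also rose, with 58.5, 90.2 and 101 CPM in the WT libraries against 143, 160 and 169 CPM in the KO libraries and a log2 fold change of 0.92. Sox1 and Sox15 were the partners that fell. Sox15 had 3.66, 3.65 and 2.16 CPM in the WT libraries and 1.38, 1.23 and 1.65 CPM in the KO libraries, all lower, and its log2 fold change was −1.13 (SE 0.33, adjusted p = 0.0217), which DESeq2 with a replicate block did not pass (adjusted p = 0.134). Among the partners that did not pass, those with the most counts were the HMG-box proteins Hmgb1 (−0.032) and Hmgb2 (0.063), the Oct1 cofactor Hcfc1 (−0.093) and Sox4 (−0.0055). Pou2af1, the B cell coactivator of Oct1 and Oct2, had 0 counts in every library.

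**Figure D4:**
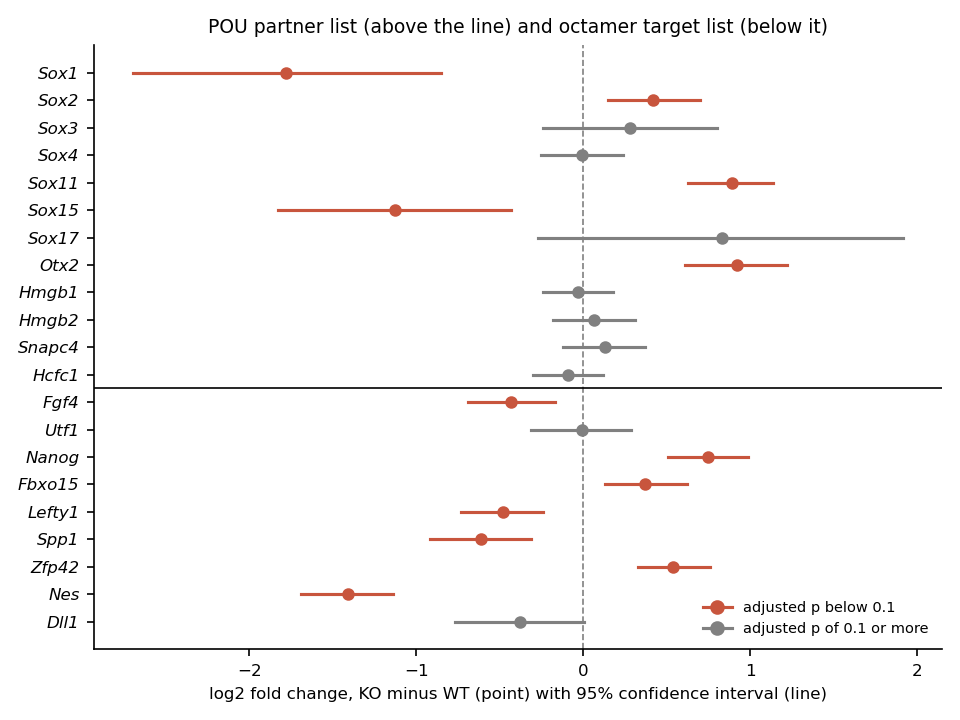
Log2 fold change (KO minus WT, horizontal axis) of the tested genes of the POU partner list (12 genes, above the black line) and of the octamer target list (9 genes, below it), points being estimates and lines 95% confidence intervals; red marks an adjusted p below 0.1. Red points lie on both sides of 0 in both lists, from −1.78 for Sox1 to 0.92 for Otx2.

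Textbook targets of Oct4 or of class III POU factors likewise changed in both directions. The list held 11 genes, of which 9 were tested and 7 passed, 3 higher and 4 lower in KO EpiLCs, with a median log2 fold change of −0.38, beside 24.3% passing and a median of 0.0014 over all genes. Fgf4, a growth factor gene with a composite SOX and POU enhancer, had 272, 332 and 318 CPM in the WT libraries and 180, 247 and 257 CPM in the KO libraries. All 3 KO libraries were lower, and the log2 fold change was −0.43 (SE 0.12, adjusted p = 0.0181), or −0.29 with an adjusted p of 0.122 without KO replicate 1. Lefty1, a Nodal inhibitor, had 542, 423 and 502 CPM against 353, 294 and 400 CPM, again with every KO library lower, and a log2 fold change of −0.48 (SE 0.12, adjusted p = 0.00623).

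Spp1, which encodes osteopontin, fell from 43.6 ± 6.17 to 28.5 ± 5.94 CPM (SD, n = 3 each), a log2 fold change of −0.61 (SE 0.15, adjusted p = 0.00569). Nes, whose neural enhancer is bound by class III POU factors, fell by 1.41 on the log2 scale, with 36.7 to 41.4 CPM in WT EpiLCs and 12.8 to 15.6 CPM in KO EpiLCs. The targets that rose were Nanog (0.75), Zfp42 (0.54) and Fbxo15 (0.37). Nanog lies on chromosome 6, on which the genes tested had a median log2 fold change of −0.40, and Fbxo15 did not pass without WT replicate 1 or without KO replicate 3 (adjusted p = 0.164 and 0.199). Utf1 (−0.008) and the Notch ligand gene Dll1 (−0.38, adjusted p = 0.177) did not pass, although Dll1 passed in edgeR with the replicate block (adjusted p = 0.0422), without the filter (0.06) and without WT replicate 2 (0.024). In DESeq2 with the block, Dll1 did not pass (adjusted p = 0.191). Egr2, known as a target of Oct6 in Schwann cells, had 5 counts in all, and Fabp7 had 11, both below the filter.

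Markers of other cell states were examined beside these lists. Of 6 naive pluripotency markers (Zfp42, which is also in the target list, Klf4, Esrrb, Tfcp2l1, Nr5a2 and Tbx3), 3 passed as higher in KO EpiLCs, Zfp42, Esrrb and Nr5a2, beside 11.8% of all genes tested, while Klf4, Tfcp2l1 and Tbx3 did not pass. The sum of the 6 was 172 to 178 CPM in WT EpiLCs and 242 to 312 CPM in KO EpiLCs. Markers of the primitive streak and primitive endoderm were low, with sums of at most 11.6 and 8.5 CPM. Of the 3 in each list, 1 and 2 were tested. In each list 1 passed as higher, Eomes (0.87) and Gata6 (1.35), beside 11.8% of all genes tested. Of 3 fibroblast markers 2 were tested and 1 passed, Thy1, which was lower (−1.22), beside 12.5% of all genes tested. The sum of the 3 fibroblast markers was 4.93 to 7.69 CPM in WT EpiLCs and 2.86 to 3.97 CPM in KO EpiLCs. It includes Col1a2, at a mean of 3.3 CPM in WT EpiLCs and 1.93 in KO EpiLCs, which did not pass (adjusted p = 0.172). Col1a2 lies on chromosome 6, where the genes tested had a median log2 fold change of −0.40. None of 3 trophectoderm markers reached the test, their sum being below 1 CPM in every library. The part of these markers in the values of the partners and targets was not tested.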

How the data were processed

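RNA-seq libraries of 3 WT EpiLCs and 3 Oct6 KO EpiLCs were made by the authors with a stranded kit for rRNA-depleted total RNA, and sequenced as read pairs of 100 bases. The authors deposited raw counts per gene, without normalization or filter, after FastQC, Fastp and STAR on GRCm39; the use of the strand and the treatment of reads with several matches are not given in the sources used here. Groups and replicate numbers come from the sample labels. Identifiers were matched to GENCODE M39 (54749 of 55416 found). POU members, the other lists and the rule for the genes named were chosen with earlier results of these data known. Of the partner and target lists, genes that passed are named, with up to 4 others with the most counts.

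Counts were tested in R 4.3.3 with edgeR 4.0.16, by TMM normalization (factors 0.974 to 1.02), filterByExpr with its minimum count of 10, and the quasi-likelihood test of genotype with no other term; p-values were adjusted by Benjamini-Hochberg over 15746 genes, a gene passing at an adjusted p below 0.1. The biological coefficient of variation was 11.7%. Standard errors were derived from the F statistic. The scripts were tested on simulated data. With 3 libraries against 3, an exact permutation test of a single gene cannot go below 0.10 and was not used.

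Same-numbered libraries deviated together from their group means, with correlations of 0.253, 0.302 and 0.124 across 13228 genes, against −0.228 to −0.0386 for other pairs. The replicate number may thus pair the libraries. The main test did not use this pairing, and the replicate number as a block was fitted as an alternative. The alternatives were this block in edgeR and in DESeq2 1.42.0, DESeq2 alone, RLE size factors, library totals without TMM, a filter of at least 10 counts per library or none, robust estimation, a threshold of 0.05, and the omission of each library. The canonical transcript as length was added after seeing the data. Sequences were read from GRCm39, from the RefSeq promoter table and from the study's primer list. A few genes of the lists are not reported here.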

Additional observations from a re-analysis of the deposited data

How the results depend on the processing

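The number of POU members that passed was 1 (Pou4f1, higher) and depended on the fit. It was 0, with 0 higher, under library totals alone, no filter, DESeq2 and an adjusted p below 0.05, and 2 in edgeR when the replicate number was a block, 1 higher and 1 lower. DESeq2 with the replicate block passed 0 higher and 1 lower. With each library left out in turn, between 0 and 1 passed, between 0 and 1 higher and between 0 and 1 lower, the 1 lower being Pou5f1 without WT replicate 3. Among POU genes, partners and targets, the replicate block changed no call besides those of Pou5f1 and Dll1 in edgeR, which then passed, and, against DESeq2 without it, those of Pou5f1, which passed, and Sox15, which did not. Counts of the other POU genes, of the partner and target lists and of all genes that passed stayed within 1.5 times under each alternative. Directions changed only for genes near 0 that did not pass, when a library was left out: Sox4 (0.034, 0.057 and 0.09, in a range from −0.11), Hmgb1 (0.035, in a range from −0.11), Hmgb2 (−0.04 in each of 2 fits, in a range up to 0.17) and Utf1 (0.077, 0.015 and 0.14, in a range from −0.12). The cause was not tested. Levels per length that moved by more than 1 SD with the canonical transcript were those of Pou5f1, Pou2f1, Pou2f2, Pou2f3 and Pou6f1.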
